A study of Mus musculus with 8 samples.

Results

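Cyp26b1, Crabp1, Meis1 and Meox1 were followed as 4 genes of retinoic acid handling and limb homeobox control, taken by symbol from the 739 distinct genes that the deposited tables list as changed. RNA came from limb buds of C57BL/6 mouse embryos at E13.5, in which 1 allele of Sox9, a master regulator of cartilage formation, carried an IRES-EGFP reporter. In the wild-type group (WT, Sox9+/IRES-EGFP, called Sox9+/+ in the table headings) the tagged allele was otherwise normal. In the Y440X group (Sox9+/Y440X-IRES-EGFP) the tagged allele also carried the Y440X mutation, known from campomelic dysplasia, and the other allele was normal in both. Cells were sorted into GFP-positive cells, which transcribe the tagged allele, and GFP-negative cells, the rest of the bud. There were 8 libraries in 4 groups of 2, with 1 forelimb and 1 hindlimb library per group, each made from pooled buds of several embryos.

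Retinoic acid is a vitamin A derivative that acts as a signal by binding nuclear receptors. Its level in a tissue is set by the enzymes that make it and by the CYP26 enzymes that break it down. Cyp26b1 encodes the CYP26 enzyme best known in the limb bud, where it keeps the distal bud low in retinoic acid, and mice without it have shortened limbs. Crabp1 encodes a small cytoplasmic protein that binds retinoic acid. Meis1 encodes a homeodomain partner of HOX proteins that marks the proximal limb bud and is raised by retinoic acid in chick and mouse limbs. Meox1 encodes a homeodomain protein of the somites and their derivatives.

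On GRCm38 (GENCODE M21) Cyp26b1 lies on chromosome 6 from 84571414 to 84593908, minus strand, and Crabp1 on chromosome 9 from 54764748 to 54773110, plus strand. Meis1 lies on chromosome 11 from 18879817 to 19018985, and Meox1 on chromosome 11 from 101877510 to 101894374, both on the minus strand. All 4 are protein-coding. The exons of Cyp26b1, Crabp1 and Meox1 overlap those of no other gene. Of the 10532 exon bases of Meis1 in that annotation, 1029 are shared with Gm37818 on the same strand and 896 with Gm16140 on the opposite strand. The deposited length of Meis1 is 3441 bases, so the counted model was shorter, and whether it held the shared bases was not tested.

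RefSeq promoter windows (GRCm38.p6, 250 bases before to 50 after a start site, on the strand of the gene) were matched for 3 of the 4 genes. They are shown so that the starts of the genes compared below can be read directly. Capitals mark matches of TATAAA on the gene's strand, or of the SOX core letters ACAAT, or their variant ACAAAG, on either strand.
Cyp26b1, chr6:84593761-84594060, minus strand: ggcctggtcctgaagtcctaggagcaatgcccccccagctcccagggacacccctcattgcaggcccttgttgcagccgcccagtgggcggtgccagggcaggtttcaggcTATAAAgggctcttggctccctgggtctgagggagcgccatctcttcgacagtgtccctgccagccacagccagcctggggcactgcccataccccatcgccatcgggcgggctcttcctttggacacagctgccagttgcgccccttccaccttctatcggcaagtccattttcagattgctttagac
Crabp1, chr9:54764498-54764797, plus strand: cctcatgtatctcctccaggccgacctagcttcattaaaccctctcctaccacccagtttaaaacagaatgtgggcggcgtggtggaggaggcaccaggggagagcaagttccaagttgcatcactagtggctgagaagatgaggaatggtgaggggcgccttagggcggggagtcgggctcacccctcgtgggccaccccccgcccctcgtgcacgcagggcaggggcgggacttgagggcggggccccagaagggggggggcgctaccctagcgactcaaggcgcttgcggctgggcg
Meis1, chr11:19018920-19019219, minus strand: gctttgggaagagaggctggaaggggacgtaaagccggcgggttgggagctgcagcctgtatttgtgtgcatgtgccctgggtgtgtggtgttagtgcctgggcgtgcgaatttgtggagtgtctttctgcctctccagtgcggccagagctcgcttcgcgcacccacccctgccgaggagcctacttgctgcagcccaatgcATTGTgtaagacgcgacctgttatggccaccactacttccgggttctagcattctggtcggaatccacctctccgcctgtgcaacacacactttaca

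The Cyp26b1 window holds TATAAA, which 8.32% of the 32851 RefSeq windows hold on the gene's strand. Its first base lies at -139 from the start site that defines the window, and 41 bases before the outermost GENCODE start of the gene, a different site. The Meis1 window holds 1 SOX core match, read as ATTGT on the gene's strand. It lies at -47 from the start site of the window and 31 bases before the outermost GENCODE start. SOX core letters occur in 42.9% of all windows. None of the 3 windows holds a retinoic acid receptor half-site in the letters AGGTCA, with the first variant GGGTCA, the second variant AGTTCA and the third variant GGTTCA, or the Meis core letters TGACAG. On either strand, 43.7% and 19.2% of all windows hold these. A match is a description of letters, and the files hold no binding data.

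Levels are given as CPM, counts per 1000000 reads of an effective library size of 38579000 to 51140000 reads. Group values are the mean ± SD of n = 2. Log2 fold changes ± SE come from edgeR's quasi-likelihood test fitted on all 739 genes, with Benjamini-Hochberg adjustment over all 739 and a threshold of 0.05. These genes were picked for a genotype difference. The adjustment is thus likely more lenient than one over all measured genes, and the calls hold only among the listed genes. The spread behind each test comes from 1 forelimb and 1 hindlimb library per group. edgeR draws it toward the spread of the other listed genes, so it is not that of the gene alone. Where a library was left out, its group had 1 sample, which was assumed to vary like the other groups, so calls gained or lost there rest on that assumption. Sox9 itself measured, forelimb before hindlimb as in all pairs of values given here, 1070 and 925 CPM for WT and 475 and 560 CPM for Y440X among GFP-positive cells. Among GFP-negative cells the WT values were 96.4 and 72.1 CPM and the Y440X values 17.8 and 21.9 CPM. The gate selected on the reporter inside Sox9, and both alleles add to these counts. For the 15 cartilage markers among the 739 listed genes, the summed level was 33738 to 49607 CPM in WT GFP-positive and 452 to 531 CPM in WT GFP-negative libraries.

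Where the genes were expressed came first, because the tables were selected on genotype and not on the sort. The libraries of both genotypes also entered the genotype comparisons that chose the genes. The comparison of the sorts is thus not independent of that choice. In WT limb buds Cyp26b1 was higher in GFP-positive cells, and Crabp1, Meis1 and Meox1 were higher in GFP-negative cells. All 4 differences passed the test, against 80.1% of the 739 genes (30.3% higher and 49.8% lower in GFP-positive cells). A difference between the sorts was thus common among the listed genes. For 90.7% of the 739 the WT libraries of the sorts did not overlap.

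Cyp26b1, the retinoic acid-degrading enzyme, measured 446 and 386 CPM among WT GFP-positive cells, and 113 and 105 CPM among the GFP-negative cells of the same limbs. Both GFP-positive libraries lay above both GFP-negative ones, by 3.97-fold in forelimb and 3.69-fold in hindlimb. The log2 fold change was 1.94 ± 0.21 (edgeR adjusted p = 1.4e-06).

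Crabp1, the binding protein, had the opposite distribution. Its WT values were 36.2 and 55.6 CPM among GFP-positive cells, and 235 and 258 CPM among GFP-negative cells. GFP-negative libraries were 6.495-fold higher in forelimb and 4.64-fold higher in hindlimb, with no overlap (log2 fold change -2.43 ± 0.23, edgeR adjusted p = 5.3e-07). Per length, with RPKM computed from the deposited gene lengths, the binding protein exceeded the enzyme in WT GFP-negative cells, at 307 ± 20.3 against 22.4 ± 1.15 RPKM. In WT GFP-positive cells the enzyme was the higher, at 85.8 ± 8.85 against 57.2 ± 17.1 RPKM.

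Meis1 was at 6.04 and 6.41 CPM in forelimb and hindlimb of WT GFP-positive cells, and at 10.4 and 18.9 CPM in WT GFP-negative cells. The WT GFP-negative limbs were far apart, with an SD of 40.8% of the mean, but both lay above the GFP-positive ones (log2 fold change -1.23 ± 0.27, edgeR adjusted p = 0.00096). Without the WT GFP-negative hindlimb library the log2 fold change was -0.74, and the call was kept (edgeR adjusted p = 0.0257).

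Meox1 was at 4.51 and 6.65 CPM in forelimb and hindlimb of WT GFP-positive cells, and at 18.4 and 19.6 CPM in WT GFP-negative cells. The GFP-negative limbs were nearly equal and both above the GFP-positive limbs (log2 fold change -1.76 ± 0.24, edgeR adjusted p = 1.5e-05). Both homeobox genes lay under the retinoic acid genes per length in both WT sorts. In WT GFP-negative cells they were at 8.60 ± 0.397 RPKM (Meox1) and 4.25 ± 1.74 RPKM (Meis1). Cyp26b1 was at 22.4 RPKM and Crabp1 at 307 RPKM in those cells, so the gap to Cyp26b1 was the smaller.

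In Y440X limb buds 3 of the 4 genes kept this distribution and Meox1 did not. Of the 739 genes 68.3% were called, 29.1% higher and 39.2% lower in GFP-positive cells. Cyp26b1 was higher in GFP-positive cells by 1.15 ± 0.21 on the log2 scale (edgeR adjusted p = 0.00024). Crabp1 and Meis1 were lower there, at -1.67 ± 0.23 (edgeR adjusted p = 2.6e-05) and -1.67 ± 0.27 (edgeR adjusted p = 9.9e-05). Meox1 was at 22.7 and 21.3 CPM in forelimb and hindlimb of Y440X GFP-positive cells, and at 13.3 and 18.1 CPM in Y440X GFP-negative cells. It thus lay higher in GFP-positive cells in both limbs, by 1.71-fold in forelimb and 1.17-fold in hindlimb, while in WT it was lower there by 4.07-fold and 2.95-fold. The difference in Y440X was not called (log2 fold change 0.48 ± 0.23, 95% interval -0.02 to 0.99, edgeR adjusted p = 0.0826). GFP-positive and GFP-negative cells of a limb were sorted from the same suspension, and with the pool as a replicate block Meox1 was called (0.50, edgeR adjusted p = 0.0391). It was also called with limb as the block (0.51, edgeR adjusted p = 0.0242), and without the Y440X GFP-negative hindlimb library (0.73, edgeR adjusted p = 0.0464).

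**Figure D1:**
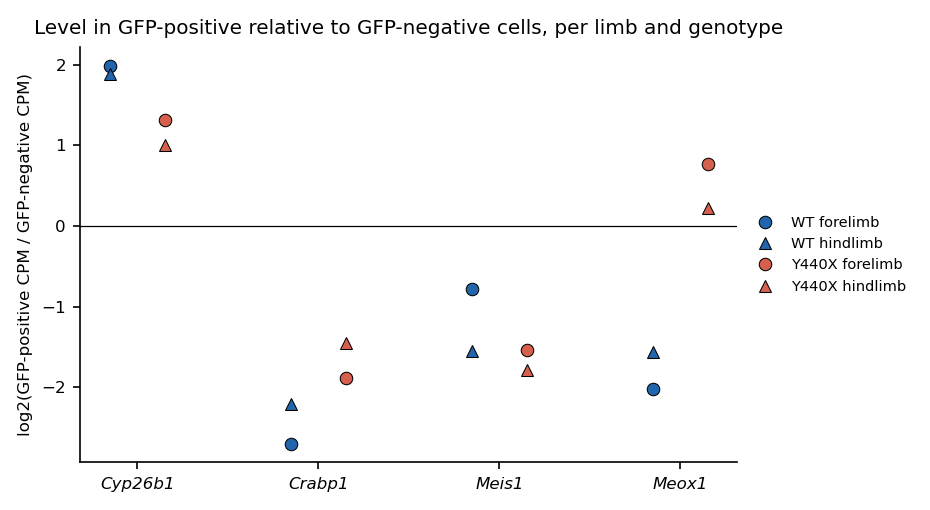
Log2 ratio of the CPM in GFP-positive to that in GFP-negative cells (vertical axis) for each gene, with 1 point per limb and genotype; circles are forelimb, triangles hindlimb, blue WT and red Y440X. Cyp26b1 lies above 0 and Crabp1 and Meis1 below 0 in all 4 pools, while Meox1 lies at -2.03 and -1.56 in WT and at 0.77 and 0.23 in Y440X.

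The comparison of genotypes in GFP-positive cells asked how the Y440X allele went with gene levels in the cells that transcribe it. Here Cyp26b1 was lower in Y440X, while Crabp1, Meis1 and Meox1 were higher. The authors' deposited table lists Cyp26b1, Crabp1 and Meox1 for this sort, so their difference is what put them among the 739 genes and is given as a description. Meis1 is not listed for this sort. Of the 739 genes 55.9% were called in this comparison, 15.8% higher and 40.1% lower. For 77.9% of the 739 the WT and Y440X libraries did not overlap. The 117 higher calls became 37 without the WT forelimb library and 64 without the WT hindlimb library.

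Cyp26b1 went from 446 and 386 CPM in forelimb and hindlimb of WT to 180 and 190 CPM of Y440X. Both Y440X libraries lay below the matching WT library, by 2.48-fold in forelimb and 2.03-fold in hindlimb. The log2 fold change was -1.17 ± 0.26, and the authors' deposited table gives an FDR of 0.00454. With TMM factors computed from the 739 listed genes it was -0.51 and not called (edgeR adjusted p = 0.0755). All of those genes had been picked for a genotype difference. That scaling raised the median log2 fold change of all 739 genes by 0.64, and turned the 117 higher and 296 lower calls into 221 and 166.

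Crabp1 measured 36.2 and 55.6 CPM for WT, and 86.2 and 99.0 CPM for Y440X. The WT limbs differed from each other more than the Y440X limbs did, and the genotypes did not overlap. The log2 fold change was 1.01 ± 0.25, just past the 2-fold limit of the authors' tables, and the authors' deposited table gives an FDR of 0.0243. Without the WT GFP-positive forelimb library it was 0.74 and no longer called (edgeR adjusted p = 0.0756). With the enzyme lower and the binding protein higher, their order per length was turned in this sort, to 38.2 ± 1.48 RPKM for Cyp26b1 and 115 ± 11.4 RPKM for Crabp1.

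Meox1 had the greatest of the 4 differences here. WT libraries held 4.51 and 6.65 CPM and Y440X libraries 22.7 and 21.3 CPM, 5.03-fold in forelimb and 3.196-fold in hindlimb. These rest on 174 and 283 reads in WT and 1033 and 953 in Y440X. The log2 fold change was 1.97 ± 0.25, and the gene stands 5th of 76 in the authors' deposited table of higher genes (FDR = 0.00401).

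Meis1, which this comparison did not select, measured 6.04 and 6.41 CPM for WT, and 10.8 and 12.2 CPM for Y440X. The 2 limbs of each genotype lay close together and the genotypes did not overlap, with a fold of 1.78 in forelimb and 1.90 in hindlimb. The log2 fold change was 0.88 ± 0.25 (95% interval 0.37 to 1.39, edgeR adjusted p = 0.0038), under the 2-fold limit of the authors' tables. Of the 436 genes not listed for this sort 25.2% were called, 9.4% higher and 15.8% lower. All 436 were listed for GFP-negative cells, as higher or lower, so these shares are not those of genes listed as higher there. The call was lost without the WT forelimb library (0.84, edgeR adjusted p = 0.0711) and without the WT hindlimb library (0.92, edgeR adjusted p = 0.0501).

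**Figure D2:**
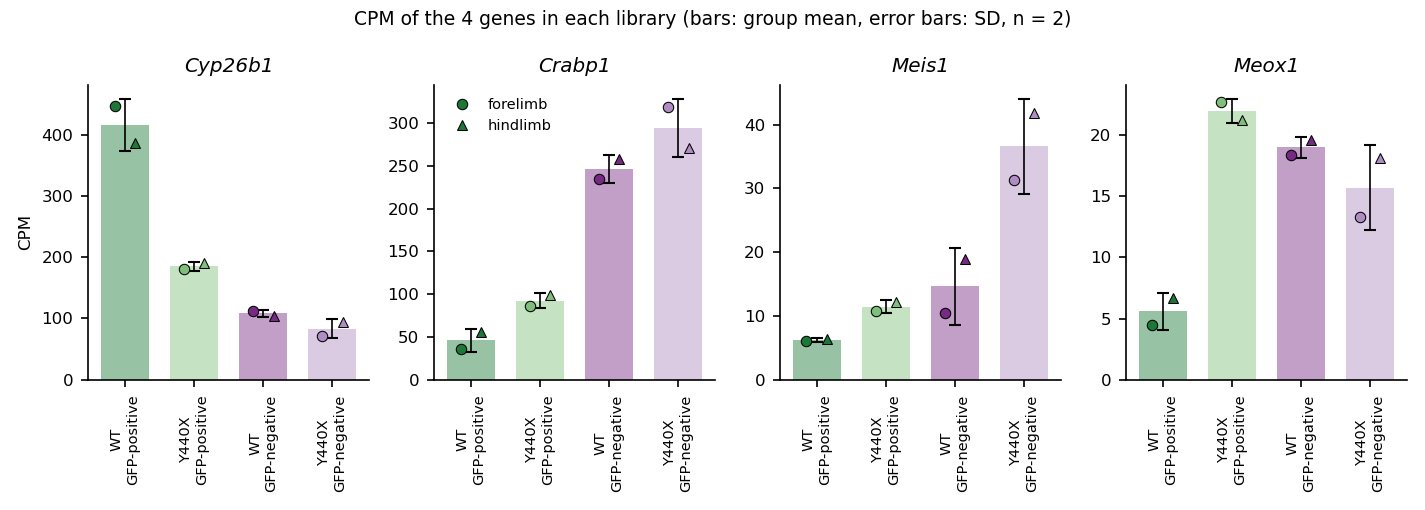
CPM (vertical axis, linear, a scale per gene) of the 4 genes in every library; bars are group means, error bars the SD of n = 2, circles forelimb and triangles hindlimb. In GFP-positive cells the Y440X libraries lie below WT for Cyp26b1 and above WT for Crabp1, Meis1 and Meox1, and the highest group is WT GFP-positive for Cyp26b1 and Y440X GFP-negative for Crabp1 and Meis1.

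Markers of other cell types also differed by genotype in this sort. A marker has a row, and so counts, only if the authors listed it as changed in a sort. Its calls are thus not free of that selection, and levels of markers without a row are not known here. For this sort the authors listed 7 of the 8 epithelial markers and the 3 heat shock genes as higher. They listed 13 of the 15 cartilage and 4 of the 6 Schwann and neural crest markers as lower. Of the 9 endothelial markers 1 was listed as higher, and 1 macrophage and 1 skeletal muscle marker were listed as lower. Of 12 surface epithelium markers 8 had rows. All 8 were called higher in Y440X, and their summed level was 20.2 to 20.5 CPM in WT and 54.1 to 77.6 CPM in Y440X. Of 18 cartilage markers 15 had rows. All 15 were called lower, with a sum of 33738 to 49607 CPM in WT and 11388 to 14786 CPM in Y440X. Of 8 heat shock and dissociation genes 3 had rows. All 3 were called higher, from 51.8 to 59.6 CPM in WT to 263 to 283 CPM in Y440X. The 3 fibroblast markers other than Crabp1 with rows, of 8 on that list, made no call (390 to 446 CPM in WT, 467 to 538 CPM in Y440X). Of 12 endothelial markers 9 had rows, at 13.1 to 13.4 CPM in WT and 18.6 to 20.98 CPM in Y440X, and 4 of them were called higher. All 6 of 8 Schwann and neural crest markers with rows were called lower (67.8 to 78.0 CPM in WT, 18.6 to 23.5 CPM in Y440X). So were 4 of 6 skeletal muscle markers (9.66 to 13.2 CPM in WT, 7.38 to 8.93 CPM in Y440X). Of 9 macrophage markers 2 were called higher and 2 lower (11.3 to 11.6 CPM in WT, 8.25 to 9.72 CPM in Y440X), and of 2 erythroid markers 1 was called higher (1.32 to 1.83 CPM in WT, 1.76 to 2.05 CPM in Y440X). No marker with a row in the tables was at 0 in both libraries of a group. The part of these markers in the differences of the 4 genes was not tested. In sorted bulk samples fewer cells of a type and less RNA per cell cannot be told apart.

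In GFP-negative cells the question was whether the same genes differed in cells outside the reporter gate. Meis1 was higher in Y440X, and Cyp26b1, Crabp1 and Meox1 made no call. Meis1 is the 1 of the 4 that the authors' deposited table lists for this sort, so its own difference is again a description. Of the 739 genes 80% were called here, 12.7% higher and 67.3% lower. Of the 229 genes not listed for this sort, 35.4% were called, 3.93% higher and 31.4% lower.

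Meis1 went from 10.4 and 18.9 CPM in forelimb and hindlimb of WT to 31.3 and 41.9 CPM of Y440X, 3.01-fold in forelimb and 2.22-fold in hindlimb. Within each genotype the hindlimb was the higher, and the lowest Y440X library lay above the highest WT library. Such a lack of overlap, in either direction, was seen for 90.5% of the 739 genes in this sort. It was also seen for Cyp26b1, Crabp1 and Meox1, which made no call. The log2 fold change was 1.32 ± 0.28, and the authors' deposited table gives an FDR of 0.0226. Without the WT hindlimb library it was 1.81 and without the WT forelimb library 0.96.

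Cyp26b1 was at 113 and 105 CPM in WT and 72.1 and 94.3 CPM in Y440X. The Y440X libraries were lower in both limbs but apart from each other (log2 fold change -0.39 ± 0.17, 95% interval -0.77 to 0.0037, edgeR adjusted p = 0.0644). With limb as a replicate block Cyp26b1 was called (-0.40, edgeR adjusted p = 0.0483). It was called without the Y440X hindlimb library (-0.59, edgeR adjusted p = 0.012) while TMM factors from the listed genes gave 0.30.

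Crabp1 was at 235 and 258 CPM in WT and 319 and 270 CPM in Y440X, a log2 fold change of 0.26 ± 0.15 (95% interval -0.08 to 0.59, edgeR adjusted p = 0.139). It was called with TMM factors from the listed genes (0.92, edgeR adjusted p = 0.00175). Meox1 was at 18.4 and 19.6 CPM in WT and 13.3 and 18.1 CPM in Y440X (log2 fold change -0.27 ± 0.21, 95% interval -0.74 to 0.20, edgeR adjusted p = 0.246), and measured 0.41 with those factors. These intervals reach at most -0.77 for Cyp26b1, 0.59 for Crabp1 and -0.74 for Meox1, so a 2-fold difference lies outside all 3 with all libraries on the solved sizes. Leaving out 1 library, Meox1 ran from -0.52 without the Y440X hindlimb to -0.066 without the Y440X forelimb, and Crabp1 from 0.37 to 0.13 in the same order, with no call. These factors shifted the median log2 fold change by 0.68 here, and turned 94 higher and 497 lower calls into 163 and 316.

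Markers of other cell types differed in this sort too, and their part in the rise of Meis1 was not tested. Again their calls are not free of the selection. For this sort the authors listed 8 of the 9 endothelial, all 9 macrophage and all 6 skeletal muscle markers as lower. They listed 6 of the 8 epithelial markers, the 2 erythroid markers and the 3 heat shock genes as higher. The 3 fibroblast markers, 6 of the 15 cartilage and 3 of the 6 Schwann and neural crest markers were also listed as lower. Of all 739 genes 67.3% were called lower here and 12.7% higher. All 9 endothelial markers with rows were called lower in Y440X (244 to 257 CPM in WT, 105 to 107 CPM in Y440X). All 9 of 12 macrophage markers with rows were also called lower (410 to 466 CPM in WT, 104 to 128 CPM in Y440X). Of the 8 surface epithelium markers 7 were called higher (40.1 to 42.0 CPM in WT, 94.4 to 114 CPM in Y440X). The 3 fibroblast markers were called lower (647 to 807 CPM in WT, 300 to 384 CPM in Y440X), and the 3 heat shock genes higher (101 to 111 CPM in WT, 434 to 536 CPM in Y440X). All 6 of 13 skeletal muscle markers with rows were called lower, from 111 to 113 CPM in WT to 43.2 to 53.0 CPM in Y440X. Of 5 erythroid markers 2 had rows and both were called higher (11.3 to 13.1 CPM in WT, 42.5 to 44.4 CPM in Y440X). Of 6 Schwann and neural crest markers 5 were called lower (47.9 to 70.1 CPM in WT, 19.3 to 36.4 CPM in Y440X), and of 15 cartilage markers 12 (452 to 531 CPM in WT, 302 to 327 CPM in Y440X).

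Whether the genotype difference itself differed between the sorts was tested with an interaction term over all 8 libraries. It is not independent of how the tables were chosen, and 49.9% of the 739 genes were called, 31.8% higher and 18.1% lower. For Meox1 the difference was greater in GFP-positive cells by 2.25 ± 0.34 on the log2 scale (edgeR adjusted p = 0.0007), and it passed in all 14 alternatives run. For Cyp26b1 the difference was -0.78 ± 0.29 (edgeR adjusted p = 0.0399), that is, a greater fall in GFP-positive cells. This call was lost on leaving out any of 6 single libraries, with log2 values of -0.84 to -0.58 and edgeR adjusted p from 0.0767 to 0.173. For Crabp1 it was 0.76 ± 0.33 and not called (edgeR adjusted p = 0.0692), but it was called with the pool as a replicate block (0.79, edgeR adjusted p = 0.0213). For Meis1 it was -0.44 ± 0.38 (95% interval -1.27 to 0.38, edgeR adjusted p = 0.34) and not called. It moved from -0.93 without the WT GFP-negative hindlimb library (edgeR adjusted p = 0.0526) to -0.08 without the WT GFP-negative forelimb library (edgeR adjusted p = 0.867). TMM factors shifted the median log2 fold change by -0.03 in this comparison, and by 0.04 and 0.01 in the WT and Y440X comparisons of the sorts.

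**Figure D3:**
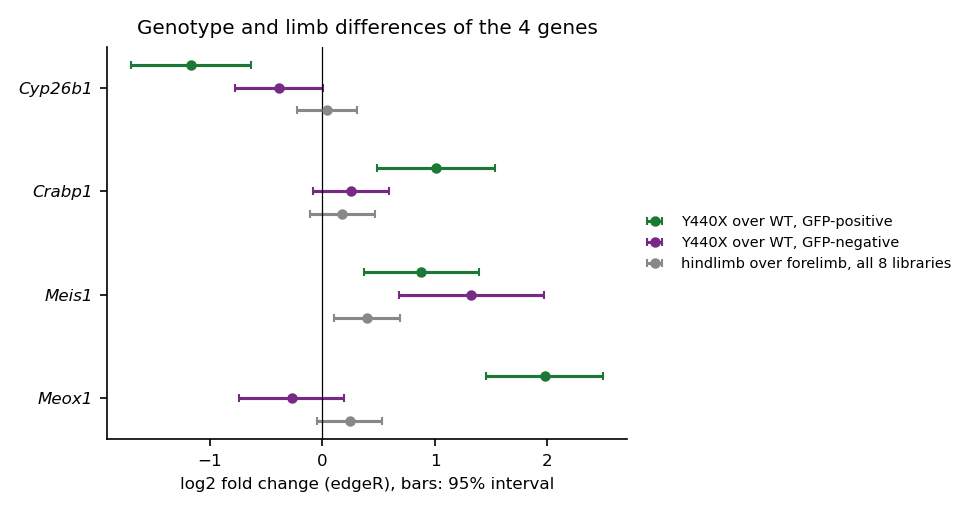
Log2 fold changes (horizontal axis) of the 4 genes from edgeR with 95% intervals, for Y440X over WT in GFP-positive cells (green) and GFP-negative cells (purple) and for hindlimb over forelimb (grey). In GFP-negative cells the intervals of Cyp26b1, Crabp1 and Meox1 reach 0 and that of Meis1, 0.68 to 1.97, does not; with TMM factors from the listed genes the GFP-negative points of Cyp26b1 and Meox1 lie above 0.

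Ordered by group mean, the 4 genes had different profiles. Cyp26b1 ran from WT GFP-positive (416 ± 42.9 CPM) through Y440X GFP-positive (185 ± 7.15) and WT GFP-negative (109 ± 5.59) to Y440X GFP-negative (83.2 ± 15.7), of which the last pair made no call. Crabp1 ran from Y440X GFP-negative (295 ± 34.1 CPM) and WT GFP-negative (247 ± 16.3), which made no call, to Y440X GFP-positive (92.6 ± 9.11) and WT GFP-positive (45.9 ± 13.7). The order of Crabp1 was thus the reverse of that of Cyp26b1. Meis1 was highest in Y440X GFP-negative (36.6 ± 7.49 CPM) and lowest in WT GFP-positive cells (6.23 ± 0.265). Between them, WT GFP-negative (14.6 ± 5.98) and Y440X GFP-positive (11.5 ± 1.004) libraries overlapped. Meox1 was lowest in WT GFP-positive cells (5.58 ± 1.51 CPM), and the other 3 groups lay between 15.7 ± 3.45 and 21.96 ± 1.006 CPM. No overlap between groups was common among the 739 genes, at 77.9% and 90.5% for genotype in the GFP-positive and GFP-negative sorts, and 90.7% and 85.3% for the sorts in WT and Y440X.

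The limb comparison set 4 hindlimb against 4 forelimb libraries, matched by genotype and sort. None of the 4 genes was called by edgeR, DESeq2 or limma, against a share of 4.87% of the 739 genes called by edgeR (0.812% higher and 4.06% lower in hindlimb). Before adjustment 1 of the 4, Meis1, passed in edgeR, as did 22.2% of the 739. Meis1 was higher in hindlimb in each of the 4 matched pairs. Its log2 fold change was 0.39 ± 0.14 (95% interval 0.10 to 0.69, edgeR adjusted p = 0.116), and 0.24 without either WT GFP-negative library. Meox1 measured 0.24 ± 0.13 and Crabp1 0.18 ± 0.13 (edgeR adjusted p = 0.318 and 0.492). Cyp26b1 measured 0.04 ± 0.12 (95% interval -0.23 to 0.30, edgeR adjusted p = 0.907). The count of called genes was 0 without the Y440X GFP-positive forelimb or hindlimb library, and 7 without either WT GFP-negative library, against 36 with all 8. In GFP-positive and GFP-negative libraries alone it was 56 and 0. The genotype difference was also compared between limbs. It was greater in forelimb by 0.39 ± 0.28 for Crabp1 and by -0.39 ± 0.26 for Cyp26b1, neither of them called (edgeR adjusted p = 0.997 for each).

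Other genes of the same pathways were few among the listed genes. Of a list of 37 retinoic acid genes 3 had rows: Cyp26b1, Crabp1 and Tgm2. Tgm2, which encodes a transglutaminase induced by retinoic acid in many cells, had 2037 and 1873 reads in WT GFP-positive libraries and 544 and 480 in Y440X. It is listed as lower for this sort (log2 fold change -2.10 ± 0.24), as Cyp26b1 is. In GFP-negative cells Tgm2 measured -0.34 ± 0.38 (edgeR adjusted p = 0.424). The other 34, among them the synthesis enzymes Aldh1a2 and Rdh10 and the receptors, were not analysed here.

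Of a list of 92 limb homeobox genes 4 had rows: Meis1, Meox1, Dlx3 and Irx4. Dlx3, a distal-less homeobox gene, had 1031 and 1481 reads in WT GFP-positive libraries and 246 and 274 in Y440X, and is listed as lower (-2.42 ± 0.25). Irx4, of the Iroquois family, had 19 and 15 reads in WT GFP-negative libraries and 59 and 96 in Y440X, and is listed as higher (2.08 ± 0.39), as Meis1 is. In GFP-positive cells Irx4 had at most 32 reads in a library and measured 0.84 ± 0.46 (edgeR adjusted p = 0.12). No Hox gene had a row.

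Among the 649 other listed genes with a mean of at least 20 reads, likeness of profile to each gene was measured by Pearson correlation of log2(CPM + 0.5) over the 8 libraries. These correlations describe 8 points that fall into 4 groups and share libraries. The closest to Cyp26b1 were Rgs3 (r = 0.994) and Kctd4 (0.993). Kctd4 had a steeper course, from 6.60 CPM in WT GFP-positive to 0.082 CPM in Y440X GFP-negative cells. Its low end was close to the 0.0587 and 0.0624 CPM that 3 reads give in the Y440X GFP-negative forelimb and hindlimb libraries. The closest to Crabp1 were Adamts16 (0.993), Myo5b (0.986) and Slitrk1 (0.979). The closest to Meis1 were AI661453 (0.967), Rnf43 (0.953) and Sult4a1 (0.952). Rnf43, which encodes a membrane ubiquitin ligase that lowers Wnt receptor levels, had a GFP-negative mean of 1.37 CPM for WT and 3.63 CPM for Y440X.

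The profile of Meox1 had looser matches: Epcam (r = 0.928), Hist3h2ba (0.861) and Lrrtm2 (0.858). Epcam, an epithelial adhesion gene that is also on the surface epithelium list, was at 6.44 CPM in WT and 16.8 CPM in Y440X GFP-positive cells, and at 11.98 and 14.02 CPM in GFP-negative cells. Unlike Meox1, it was higher in Y440X than in WT in both sorts by these means. Among the 4 genes themselves, Cyp26b1 and Crabp1 had r = -0.980 over the 8 libraries. Meis1 and Meox1, the homeobox pair, had r = 0.538.

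**Figure D4:**
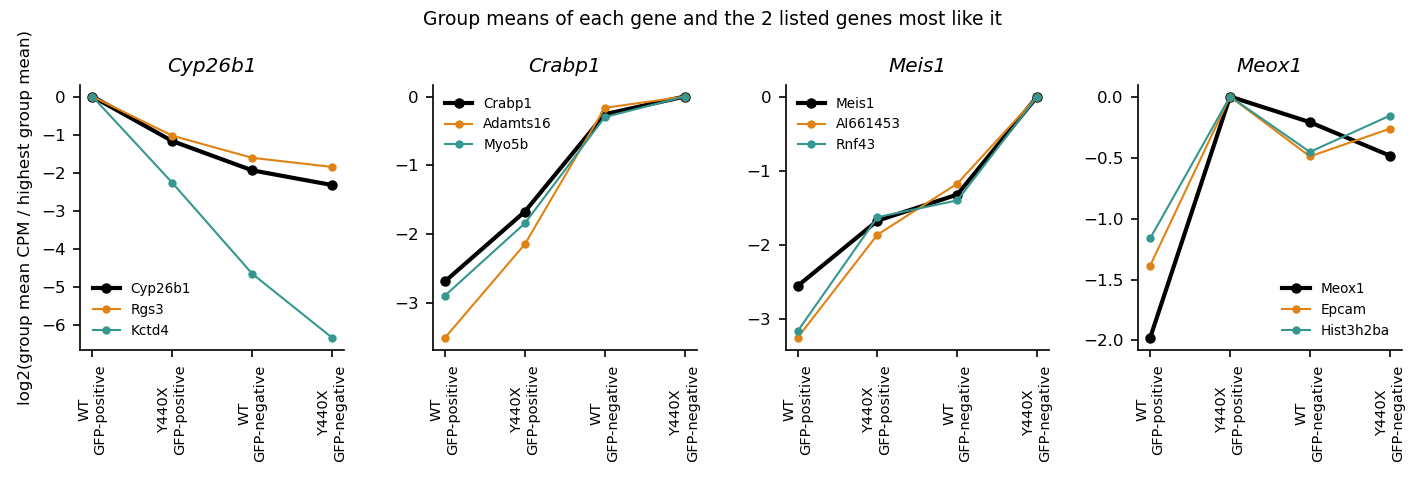
Group mean CPM relative to the highest group mean, on a log2 scale (vertical axis), in the 4 groups, for each of the 4 genes (black) and the 2 listed genes with the highest correlation to it. The curves of Crabp1 and Meis1 and their matches all peak in Y440X GFP-negative cells, those of Cyp26b1 in WT GFP-positive cells and those of Meox1 in Y440X GFP-positive cells.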

How the data were processed

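The authors deposited 4 tables of genes listed as higher or lower in Y440X, 1 pair per sort. Per the file headers they give a gene length in bases (other), a log2 fold change and log2 average CPM, an F statistic (a score of the authors' test), a p-value and its FDR. The headers call the library columns RPKM, but the deposited values are read counts: 100% were whole numbers. Read as RPKM, they missed the deposited average CPM by a median factor of 185. Read as counts, they returned the deposited log2 average CPM within a median of 0.00063 and the log2 fold changes within a median of 0.00017. The library sizes were solved on these same columns, so the last values are residuals of that fit. Counting and testing tools in the submitters' processing notes are featureCounts and edgeR 3.36.0, and builds GRCm38 and mm10. No source used here names an aligner.

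Effective library sizes were solved from both log2 columns of the deposited tables, over genes of at least 200 counts. There were 0 unused sample columns. edgeR 4.0.16 (R 4.3.3) was fitted on all 739 genes, by sort for genotype and on all 8 libraries otherwise. The members, lists and tests were chosen with earlier results of these data known. GFP-positive and GFP-negative cells of a limb came from 1 suspension, per the labels' protocols. Forelimb deviations correlated between groups at 0.0854 to 0.457. Between genotypes of the same sort the values were 0.418 (GFP-positive) and 0.457 (GFP-negative). Between the sorts of the same genotype they were 0.121 (WT) and 0.236 (Y440X). The main genotype tests did not include limb. Alternatives were TMM over the listed genes, DESeq2 1.42.0, limma 3.58.1 with trend on log2(CPM + 1), a mean CPM of at least 1, blocks, other library sets, and each library left out. The pool block was added after seeing the data. Tests were checked on simulated data. The named genes are the 4 members, list genes with rows and the 3 closest profiles of each member, of which 1 is not reported here. The plot of profiles shows 2 per member.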

Additional observations from a re-analysis of the deposited data

Results flagged for a closer look

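For 2 of the 4 genes the genotype difference differed between the sorts by the interaction term, a share about equal to the 49.9% of all 739 genes called. The term is not independent of how the tables were chosen. For Meox1 it was greater in GFP-positive than in GFP-negative cells by 2.25 on the log2 scale (edgeR adjusted p = 0.0007). Y440X lay above WT in both GFP-positive limbs, and the GFP-negative difference was not called and changed sign with TMM factors (-0.27 to 0.41). For Cyp26b1 the term was -0.78 (edgeR adjusted p = 0.0399), and the call was lost without any of 6 of the 8 libraries (edgeR adjusted p = 0.0767 to 0.173). Its GFP-negative difference was not called (-0.39) and was 0.30 with TMM factors.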

How the results depend on the processing

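Besides the settings that leave out a library, 143 values of the 4 genes kept direction and side of the threshold, 7 gained a call, 1 lost it and 5 reversed. TMM over the listed genes gave Cyp26b1 -0.51 in GFP-positive cells, and 0.30, 0.92 and 0.41 for Cyp26b1, Crabp1 and Meox1 in GFP-negative cells. Limb as a replicate block called Cyp26b1 in GFP-negative cells (-0.40), Meox1 between the Y440X sorts (0.51) and the Crabp1 interaction (0.76). The pool block called the last 2 as well (0.50 and 0.79), limma the Crabp1 interaction (0.77), and no other call of the 4 genes changed under a block. In the limb comparison Cyp26b1 was at -0.0664 in GFP-positive libraries alone and -0.0661 with limb alone, Crabp1 at -0.0511 in GFP-negative ones, and calls numbered 19 (TMM), 2 (limma), 56 and 0 (GFP-positive or GFP-negative alone) and 0 (limb alone, no replicate block), against 36.

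Leaving out each library gave 228 to 384 calls for genotype in GFP-positive cells, the lowest without the WT forelimb, and 0 to 43 for limb. Log2 ranges were 0.74 to 1.36 for Crabp1 and 0.79 to 0.97 for Meis1 in GFP-positive cells, and -0.59 to -0.20 for Cyp26b1 in GFP-negative cells. They were 0.28 to 0.73 for Meox1 between the Y440X sorts, -0.96 to -0.58 and 0.48 to 1.10 for the Cyp26b1 and Crabp1 interactions, and -0.0792 to 0.12 for Cyp26b1 between limbs. The cause of these changes was not tested. Each group has 2 libraries, which limits every test, and only listed genes were analysed.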
